A study of Mus musculus with 14 samples.

Results

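Interferon-induced GTPases were followed here as 9 of the 21205 genes counted in cells sorted as tumour cDC1. The cDC1 are the conventional dendritic cells of type 1, which take up dead cells and present their antigens to CD8+ T cells. The 9 are 6 guanylate-binding proteins (Gbp2, Gbp3, Gbp4, Gbp5, Gbp7 and Gbp8) and 3 immunity-related GTPases (Irgm1, Igtp and Iigp1), taken by name from these gene families. All 9 had counts, and all 9 passed the filter on low counts in every comparison.

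The 555 cells came from YUMM1.7 tumours, a mouse melanoma line, grown under the skin of female mice, and each of the 14 plates held the cells of 1 tumour of 1 mouse. The genotypes were Irf1_dXCR1 (5 plates, 223 cells, mice of 6 weeks), Irf1_FF (4 plates, 165 cells, 6 weeks), Ikbkb_dXCR1 (4 plates, 133 cells, with 2 mice of 8 and 2 of 6 weeks) and Ikbkb_FF (1 plate, 34 cells, 8 weeks). The genotypes carry the names that the labels give them, with the FF plates as controls. The labels do not describe the alleles or what drives the deletion. All Irf1 plates belonged to the experiment labelled M3 and all Ikbkb plates to M2, so the 2 sets of plates cannot be told apart from their experiments. Irf1 encodes a transcription factor that interferon induces, and Ikbkb encodes the kinase IKKβ, which activates NF-κB.

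The genes lie in clusters. On build GRCm38, Gbp5 (142493978 to 142522344), Gbp7 (142530342 to 142550149), Gbp3 (142560026 to 142573209) and Gbp2 (142620602 to 142638008) follow each other on the plus strand of chromosome 3. Gbp8 (105014150 to 105139540) and Gbp4 (105115767 to 105139586) overlap on the minus strand of chromosome 5. Irgm1 (48861968 to 48871683, minus strand) and Igtp (58199556 to 58207591, plus strand) are on chromosome 11, and Iigp1 is on chromosome 18.

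Interferon-γ induces the transcription factor IRF1, which acts on GTPase genes. Type I interferon reaches many of the same genes through its own receptor. The proteins hydrolyse GTP, assemble on the membranes of vacuoles that hold microbes, and help to break them open. In antigen-presenting cells they serve as a readout of exposure to interferon.

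RefSeq promoters (build GRCm38.p6) were at hand for 6 of the 9, and a stretch of each is shown because all 6 hold an interferon-stimulated response element core. The RefSeq start sites differ from the starts of the gene spans above, which are GENCODE's. The stretch of Gbp5, for example, lies within its span. The core searched was GAAA and GAAA separated by any 2 bases, on either strand, in the 250 bases before the RefSeq start. It began 24 to 59 bases before that start in 5 genes and 165 bases before it in Gbp5, and the second of 2 start sites of Gbp3 had no match. Capitals mark it, and overlapping matches were joined. On the opposite strand the core reads TTTC and TTTC separated by 2 bases.
Gbp2: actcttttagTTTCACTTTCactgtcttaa
Gbp3: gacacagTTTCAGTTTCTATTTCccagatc
Gbp5: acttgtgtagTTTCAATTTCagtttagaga
Gbp7: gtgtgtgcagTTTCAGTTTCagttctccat
Irgm1: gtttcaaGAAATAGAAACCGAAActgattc
Igtp: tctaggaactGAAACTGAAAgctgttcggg
They span 142620594 to 142620623 (Gbp2), 142559992 to 142560021 (Gbp3), 142496759 to 142496788 (Gbp5) and 142530273 to 142530302 (Gbp7) on the plus strand of chromosome 3. On chromosome 11 they span 48871428 to 48871457 on the minus strand (Irgm1) and 58199512 to 58199541 on the plus strand (Igtp). The core was in 978 of 32851 RefSeq promoters of the same length (2.98%). The letters GGG and CC separated by any 5 bases, a core of NF-κB sites, were in the Gbp5 promoter only among the 6, and in 45.8% of all promoters. A match is a description of letters, not of bound protein.

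Cells were placed in classes by single transcripts. Ccr7+ cells had at least 1 unique molecular identifier (UMI) of Ccr7, a receptor of dendritic cells that leave for the lymph node (170 cells, 30.6%). Xcr1+ Ccr7- cells had Xcr1, the defining receptor of cDC1, without Ccr7 (149 cells, 26.8%). Isg15+ cells had Isg15, a gene that type I interferon induces strongly (280 cells, 50.5%). They overlap the first 2 classes, with 87 cells in the first and 71 in the second. On average a marker of mature dendritic cells was in 64.2% of Ccr7+ and 17.2% of Xcr1+ Ccr7- cells, and a cDC1 marker in 26.9% and 72.8% of the same classes. The first list of markers holds Ccr7 and the second Xcr1, which made the classes, so these averages are no independent check of the names. Median depth was 132930 UMIs per cell in Ccr7+, 187354 in Xcr1+ Ccr7-, 171248 in Isg15+ and 115410 in Isg15- cells. Genes detected per cell had medians of 1388, 2099, 1832 and 1266 in the same order and were not matched between classes. Plates held 18 to 59 cells, and no cell name was shared between plates. Below, CPM are the UMIs of a gene per 1000000 UMIs of the class in a plate, for plates with at least 5 cells of the class.

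At least 1 of the 9 transcripts was in 378 of the 555 cells. Irgm1, a regulatory GTPase that restrains the others and takes part in autophagy, was the most widespread, in 46.5% of cells. Igtp, also a regulatory GTPase, followed with 28.1%, and Gbp2, which coats microbe-holding vacuoles, with 24.5%. Gbp4 and Iigp1, an effector GTPase that attacks the Toxoplasma vacuole, were each in 20.7% of cells. Gbp3 was in 17.8%, Gbp7 in 14.8%, Gbp5, which promotes inflammasome assembly, in 11.0% and Gbp8 in 9.91%. Exact binomial intervals of neighbours in this order overlapped except between Irgm1 (42.3% to 50.7%) and Igtp (24.4% to 32.0%). These intervals cover counting error only, since cells of 1 plate share a tumour. In cells that had the transcript, the median count was 143 UMIs for Irgm1, 114 for Gbp2 and 56 for Gbp8, beside a median of 64 UMIs over all non-zero counts of all genes.

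**Figure D1:**
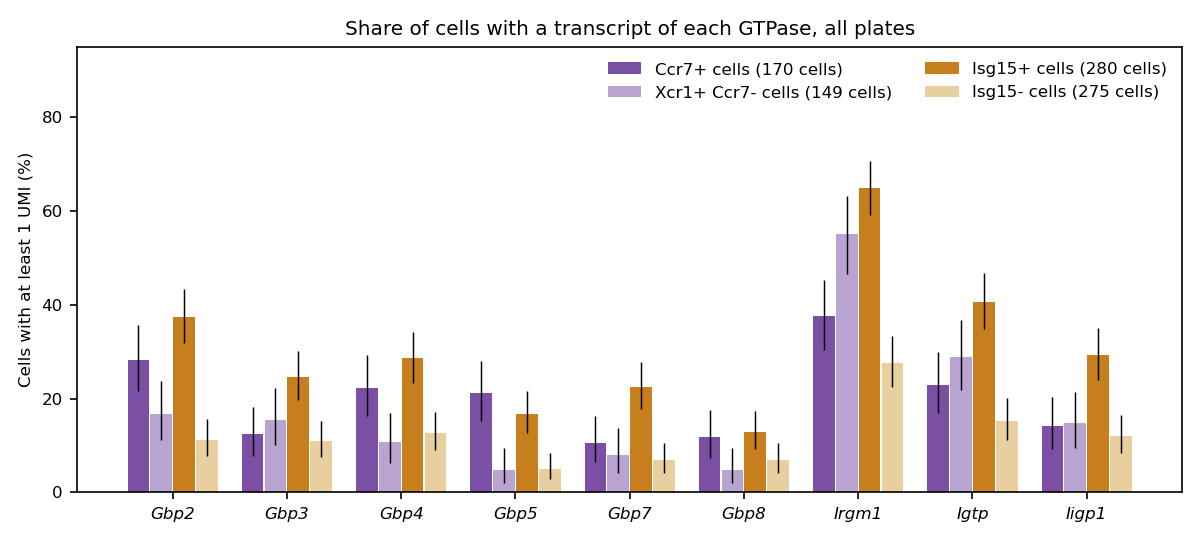
Share of cells with at least 1 UMI of each GTPase (y axis, percent) in Ccr7+, Xcr1+ Ccr7-, Isg15+ and Isg15- cells of all plates, with exact 95% binomial intervals. The share of every GTPase was higher in Isg15+ than in Isg15- cells, and the share of Irgm1 was lower in Ccr7+ (37.6%) than in Xcr1+ Ccr7- cells (55.0%).

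Gbp2 rose in Ccr7+ cells, against Xcr1+ Ccr7- cells of the same tumours, in every plate. It was the only one of the 9 GTPases to pass the edgeR test, while DESeq2 called Gbp2, Gbp5 and Gbp8. Over the 11 plates with both classes, Gbp2 had a lowest value of 99.8, a median of 309 and a highest value of 569 CPM in Ccr7+ cells, against 18.5, 98.2 and 186 CPM in Xcr1+ Ccr7- cells. The classes overlapped in range, yet within plates Ccr7+ cells were higher in 11 of 11. The means were 347 ± 182 and 91.6 ± 56.4 CPM (SD, n = 11 plates), and the log2 fold change from the model scaled by TMM was 2.09 ± 0.48 (SE; edgeR quasi-likelihood test with Benjamini-Hochberg adjustment, adjusted p = 0.0197). The test called 217 of 5561 genes (3.9%), 160 of them higher (2.88%) and 57 lower (1.02%), and of the 9 GTPases 1 was called higher and none lower. Of all genes, 135 (2.43%) were higher and 112 (2.01%) lower in every plate. An exact permutation test that flips the sign of the plate differences gave p = 0.000977 for Gbp2, the smallest that 11 plates allow (two-sided, unadjusted over the 9 GTPases). The difference held in both experiments, with 405 ± 153 against 126 ± 21.2 CPM in the 4 M2 plates and 315 ± 201 against 71.8 ± 61.8 CPM in the 7 M3 plates. The call rests on the choice of cells and plates. The adjusted p was 0.253 with at least 10 cells per class, 0.0607 with no filter on low counts and 0.0605 without Irf1_FF replicate 4.

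The share of cells with Gbp2 leaned the same way. With cells thinned to 20000 UMIs, a mean of 31.0 ± 15.2% of Ccr7+ cells per plate had Gbp2, against 20.0 ± 10.6% of Xcr1+ Ccr7- cells (SD, n = 11), with the first higher in 9 of 11 plates. The unthinned shares were 29.7 ± 14.8% and 20.5 ± 10.7%. The thinned share was higher in Ccr7+ cells in 10 of 11 plates for Gbp4 and for Gbp5. It was higher in 6 plates for Gbp8, 5 for Gbp7, 4 each for Gbp3 and Iigp1, and 2 each for Irgm1 and Igtp. Beyond these GTPases and Irf1, plate counts of this kind were not computed for shares.

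Gbp5 and Gbp4 leaned the same way with more plates at 0. Gbp5 had a median of 175 CPM in Ccr7+ cells and of 0 in Xcr1+ Ccr7- cells, where 6 of 11 plates had none. The means were 168 ± 101 and 35.1 ± 63.9 CPM, and Ccr7+ cells were higher in 9 plates, lower in 1 and equal in 1 (edgeR adjusted p = 0.174; exact sign-flip permutation p = 0.00977). Its thinned share was 22.7 ± 10.1% in Ccr7+ cells, against 5.23 ± 6.49% in Xcr1+ Ccr7- cells. Gbp4 averaged 128 ± 114 and 42.2 ± 50.9 CPM and was higher in 9 of 11 plates (log2 fold change 2.20 ± 1.43, edgeR adjusted p = 0.566; exact sign-flip permutation p = 0.0186). Neither passed the test across all genes.

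The other guanylate-binding proteins did not pass either. Gbp7 averaged 61.7 ± 64.2 CPM in Ccr7+ and 18.7 ± 23.5 CPM in Xcr1+ Ccr7- cells, Gbp3 averaged 68.1 ± 56.3 and 55.4 ± 76.3 CPM, and Gbp8 averaged 32.1 ± 27.7 and 24.0 ± 51.8 CPM. Their log2 fold changes were 1.16 ± 1.80, 1.13 ± 2.08 and 3.92 ± 3.41, in that order, with edgeR adjusted p-values of 0.691 to 0.887. Exact sign-flip permutation p-values were 0.0586, 0.693 and 0.729 in the same order. Gbp8, which DESeq2 called, was higher in Ccr7+ cells in 7 plates, lower in 3 and equal in 1. Its median in Xcr1+ Ccr7- cells was 0, with 5 of 11 plates above 0.

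None of the immunity-related GTPases passed. Irgm1 averaged 412 ± 212 CPM in Ccr7+ and 454 ± 207 CPM in Xcr1+ Ccr7- cells, higher in 6 plates and lower in 5 (log2 fold change 0.04 ± 0.64, edgeR adjusted p = 0.988). The sign of that fold change turned with DESeq2 and with upper-quartile scaling (-0.003 each), and without the block. By experiment, Irgm1 ran both ways. In M2 it was higher in Ccr7+ cells in 4 of 4 plates (573 ± 210 against 386 ± 303 CPM), and in M3 in 2 of 7 (319 ± 159 against 493 ± 144 CPM). That difference between experiments was not tested. Igtp averaged 117 ± 63.1 and 112 ± 90.4 CPM, and Iigp1 averaged 118 ± 106 and 60.7 ± 60.7 CPM, higher in 7 of 11 plates (edgeR adjusted p = 0.747). All 9 fold changes lay above 0, with a median of 1.44. Under other settings those of Gbp3, Gbp7, Irgm1 and Iigp1 reached -0.67, -0.33, -0.84 and -0.21. Over all genes the median was -0.32, and 39.3% lay above 0. On 7 related lists the genes above 0 ran from 5 of 9 tested (interferon-γ reception and signalling) to 17 of 18 (type I interferon-stimulated genes).

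**Figure D2:**
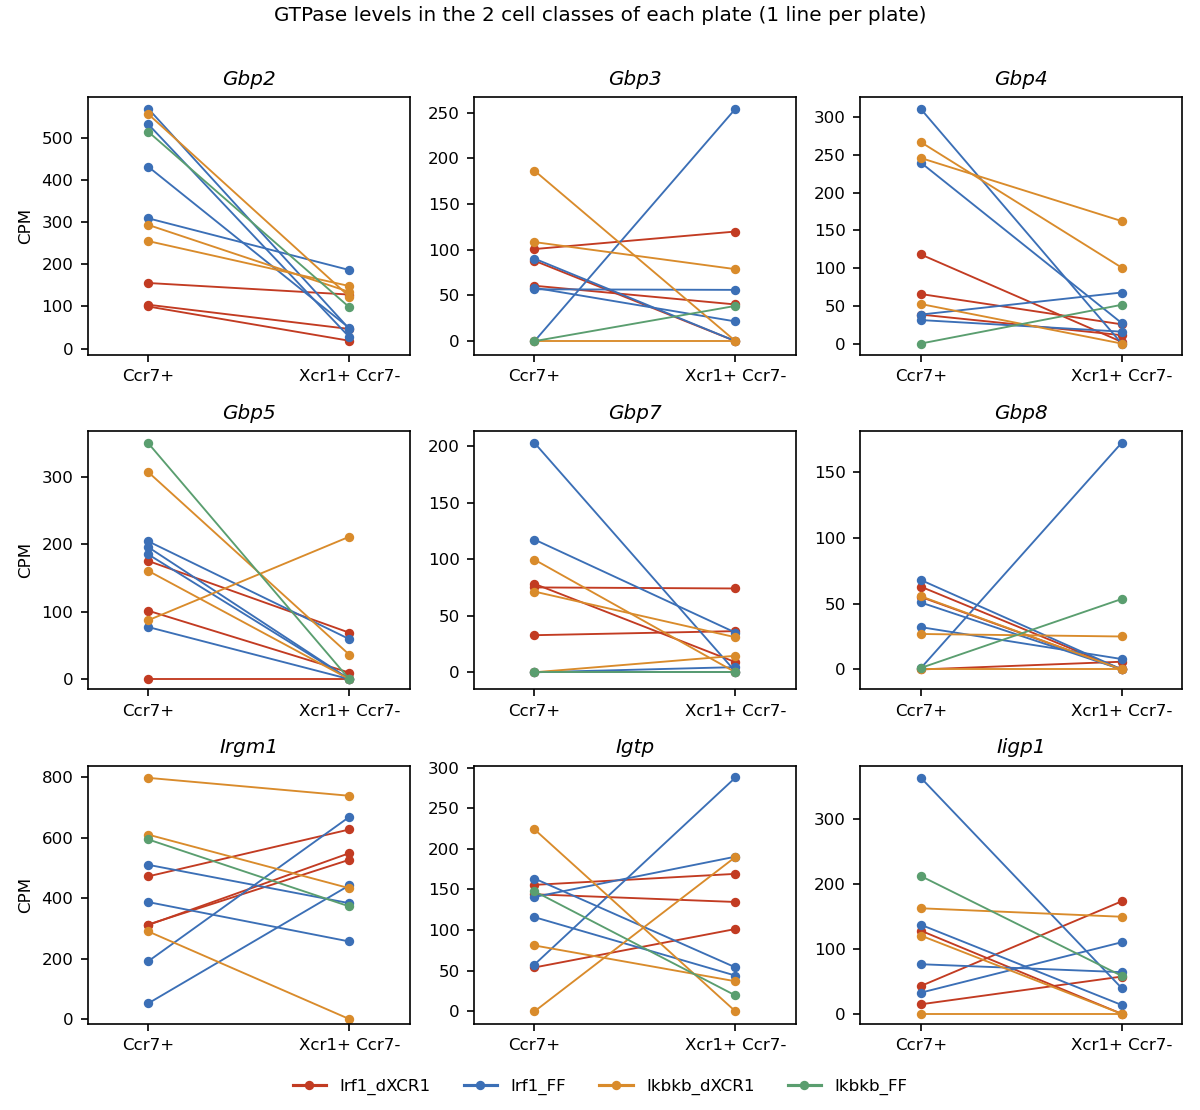
CPM of each GTPase (y axis) in Ccr7+ and Xcr1+ Ccr7- cells, with 1 line for each of 11 plates coloured by genotype. Every Gbp2 line falls toward the Xcr1+ Ccr7- side, while the Irgm1 lines run both ways.

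Irf1 leaned the same way as Gbp2, though a link between them was not tested. It averaged 513 ± 194 CPM in Ccr7+ and 157 ± 121 CPM in Xcr1+ Ccr7- cells and was higher in 11 of 11 plates (log2 fold change 2.19 ± 0.60, edgeR adjusted p = 0.058). The receptor subunit gene Ifngr1 fell, at 199 ± 178 against 525 ± 104 CPM (log2 fold change -1.87 ± 0.50, edgeR adjusted p = 0.0493), the only one to pass among 10 measured genes of interferon-γ reception and signalling, of which 9 were tested. Irf8, a transcription factor of cDC1, had 1116 ± 290 and 1352 ± 315 CPM in the same classes and did not pass.

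Among 14 other targets of interferon-γ, of which 13 were tested, 3 rose in Ccr7+ cells and none fell. They were Psme2, a proteasome activator subunit (2912 ± 747 against 1466 ± 171 CPM), B2m, the light chain of MHC class I (4834 ± 1432 against 3079 ± 357 CPM), and Cd274, which encodes PD-L1 (475 ± 241 against 74.5 ± 96.3 CPM). Their edgeR adjusted p-values were 0.000134, 0.00234 and 0.0240. None of 19 other interferon-induced GTPases passed, and 9 of them had enough counts to be tested. The most abundant 2 were Tgtp2 (250.2 ± 89.7 against 296 ± 135 CPM) and Ifi47 (340.0 ± 178 against 143 ± 106 CPM).

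Of 16 autophagy and inflammasome partners of the GTPases, 13 of them tested, 2 rose and none fell. Gabarap, which marks autophagosome membranes, rose to 909.7 ± 233 CPM against 449 ± 178 CPM, and the cargo receptor Sqstm1 rose to 749 ± 275 CPM against 297 ± 100.5 CPM. Of 12 NF-κB genes 2 rose, the inhibitors Nfkbia (1865 ± 608 against 697 ± 169 CPM) and Nfkbib (712 ± 272 against 222 ± 76.2 CPM). Of 18 type I interferon-stimulated genes 1 rose, Isg15 (713 ± 315 against 283 ± 196 CPM). None of the 8 genes of type I interferon reception and signalling passed, with Irf7 at 1095 ± 605 and 964 ± 503 CPM and Usp18 at 502 ± 315 and 519 ± 247 CPM. The edgeR adjusted p-values of these 5 risen genes were 0.000223 to 0.0334. Cycling markers moved with the classes too, in a mean of 8.68% of Ccr7+ and 24.3% of Xcr1+ Ccr7- cells, and their part in the GTPase values was not tested.

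The GTPases were more often found in cells with Isg15. Irgm1 had a lowest value of 429, a median of 576 and a highest value of 770 CPM in Isg15+ cells, against 5.34, 329 and 716 CPM in Isg15- cells of the same 13 plates. Isg15+ cells were higher in 13 of 13 plates, although the ranges overlapped. The means were 611 ± 117 and 306 ± 190.4 CPM (SD, n = 13), with a log2 fold change of 1.32 ± 0.44. The edgeR test did not call it (adjusted p = 0.542, unadjusted p = 0.00803). That test called 19 of 6811 genes (0.279%), 15 higher (0.22%) and 4 lower (0.0587%), among them Isg15, which made the classes, and none of the 9 GTPases. DESeq2 called 375, with Gbp5, Igtp, Iigp1 and Irgm1 among them. Of all genes, 21 (0.308%) were higher and 6 (0.0881%) lower in every plate. The exact sign-flip permutation test of the plate CPM gave p = 0.000244 for Irgm1, the smallest that 13 plates allow (two-sided, unadjusted).

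Igtp and Iigp1 leaned the same way. Igtp averaged 199 ± 111 CPM in Isg15+ and 87.5 ± 70.3 CPM in Isg15- cells, higher in 12 of 13 plates (log2 fold change 1.62 ± 0.61, edgeR adjusted p = 0.716; exact sign-flip permutation p = 0.00244). Iigp1 averaged 253 ± 168 and 109 ± 124 CPM, higher in 11 plates, lower in 1 and equal in 1 (1.64 ± 0.61, edgeR adjusted p = 0.714; exact sign-flip permutation p = 0.00195). None of the 3 immunity-related GTPases passed the edgeR test.

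None of the guanylate-binding proteins passed. Gbp2 averaged 313 ± 191 CPM in Isg15+ and 110.1 ± 129.9 CPM in Isg15- cells and was higher in 10 of 13 plates (log2 fold change 2.65 ± 1.25; exact sign-flip permutation p = 0.00659). Gbp5 averaged 85.5 ± 47.3 and 35.2 ± 40.5 CPM, and Gbp7, which helps to assemble the phagocyte oxidase, averaged 135 ± 127 and 36.3 ± 48.0 CPM (exact sign-flip permutation p = 0.00586 for each). Gbp4 (125 ± 102 and 82.8 ± 64.3 CPM), Gbp3 (137 ± 105 and 103 ± 78.6 CPM) and Gbp8 (46.3 ± 34.1 and 45.2 ± 46.7 CPM) had exact sign-flip permutation p-values of 0.145 to 0.939. By edgeR the adjusted p of all 6 was 1. All 9 fold changes lay above 0, with a median of 1.62, beside a median of 0.16 over all genes, of which 59.3% lay above 0. Under other settings the fold change of Gbp8 reached -1.32.

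**Figure D3:**
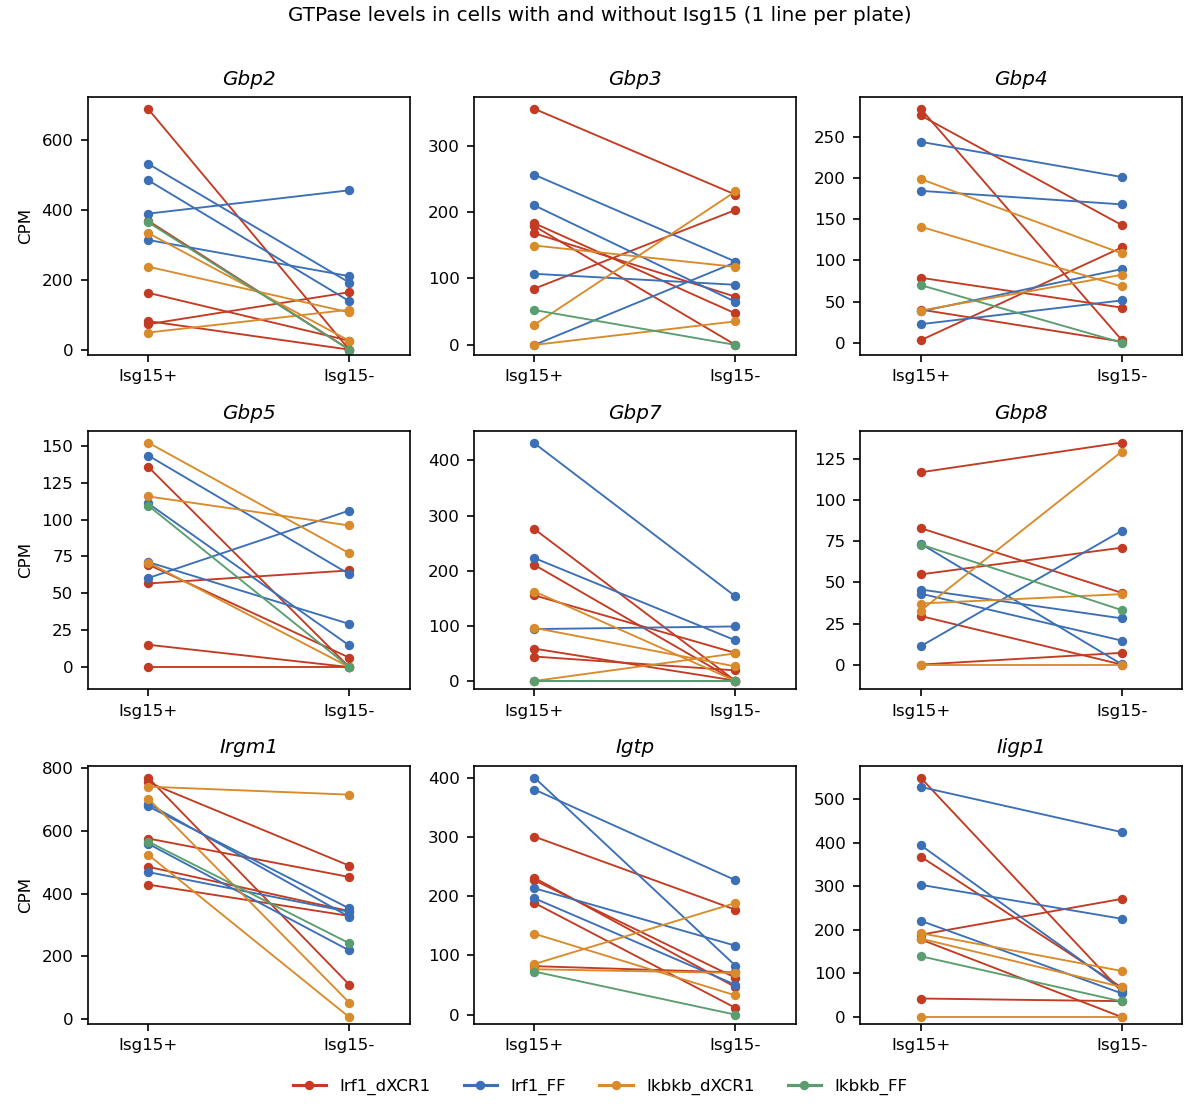
CPM of each GTPase (y axis) in Isg15+ and Isg15- cells, with 1 line for each of 13 plates coloured by genotype. All 13 Irgm1 lines and 12 of the 13 Igtp lines are higher on the Isg15+ side, while the Gbp8 lines run both ways.

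Other cells of the sort moved with Isg15. Macrophage markers (8 genes, none at 0) summed to 1388 CPM in Isg15+ and 809 CPM in Isg15- cells, and fibroblast and endothelial markers (7 genes) to 1766 and 1461 CPM. A dissociation or heat shock marker was in a mean of 36.3% and 21.4% of the same cells. Their part in the GTPase values was not tested. Among cells with Xcr1 or Ccr7 alone, a choice made after seeing the data, Irgm1 averaged 552 ± 139 CPM in Isg15+ and 259 ± 207 CPM in Isg15- cells, higher in 10 of 11 plates (exact sign-flip permutation p = 0.00293). Igtp averaged 163 ± 92.4 and 48.1 ± 48.6 CPM, also higher in 10 of 11 plates (p = 0.00293 by the same permutation test), and Iigp1 averaged 99.3 ± 58.3 and 38.5 ± 28.5 CPM (permutation p = 0.00586). The mean differences among these cells were 293 CPM for Irgm1, 115 CPM for Igtp, 60.8 CPM for Iigp1 and 141 CPM for Gbp2. Over all cells they were 305, 112, 144 and 203 CPM in the same order. Gbp2 averaged 247 ± 208 and 106 ± 141 CPM (permutation p = 0.125), and edgeR called none of the 9 among these cells.

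Shares of cells were compared after thinning. Genes detected per cell were not matched, with a median of 1832 in Isg15+ and 1266 in Isg15- cells. With cells thinned to 20000 UMIs, Irgm1 was in 61.0 ± 14.2% of Isg15+ and 26.6 ± 16.2% of Isg15- cells per plate, higher in 13 of 13 plates. Gbp2 was in 36.5 ± 15.6% and 10.8 ± 10.8%, higher in 12 of 13. Beyond the GTPases and Irf1, how often shares were higher in as many plates was not computed. Without thinning these shares were 63.3 ± 10.7% and 28.5 ± 15.6% for Irgm1, and 38.0 ± 15.0% and 11.1 ± 10.6% for Gbp2.

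Genes of type I interferon signalling changed in the same comparison. Irf7, the amplifying transcription factor, rose to 1406 ± 484 CPM in Isg15+ cells against 487 ± 318 CPM in Isg15- cells, Usp18, a brake on the receptor, rose to 744 ± 198 CPM against 231 ± 163 CPM, and Stat2 rose to 409.9 ± 158 CPM against 179.7 ± 72.9 CPM. Their edgeR adjusted p-values were 0.000975, 0.00168 and 0.0465, and they were 3 of 8 measured. Of 18 type I interferon-stimulated genes 4 were called, of which Isg15 was fixed by the choice of classes. The other 3 rose, namely Ifitm3 (2121 ± 530.5 against 1109 ± 439 CPM), Xaf1 (834 ± 229 against 301 ± 129 CPM) and Zbp1 (638 ± 175 against 322 ± 124 CPM), with edgeR adjusted p-values of 0.00243, 0.00551 and 0.0419 in that order.

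None of the 10 genes of interferon-γ reception and signalling, the 14 other interferon-γ targets, the 16 autophagy and inflammasome partners or the 12 NF-κB genes passed. B2m had 3709 ± 691 CPM in Isg15+ and 4484.5 ± 767 CPM in Isg15- cells. Irf1 averaged 247 ± 100 and 277 ± 153 CPM, higher in 6 plates and lower in 7. Of the 19 other interferon-induced GTPases 10 were tested and none passed. All 10 had fold changes above 0, led in abundance by Tgtp2 (443 ± 158 against 221 ± 168 CPM, edgeR adjusted p = 0.0913) and Ifi47 (375 ± 149 against 125 ± 84.5 CPM, edgeR adjusted p = 0.325).

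The next comparison asks whether the GTPases depend on Irf1 in cells sorted as tumour cDC1. Over all cells and in Isg15+ cells it takes in other cells of the sort. Fibroblast and endothelial markers summed per plate to a median of 1381 CPM in Irf1_dXCR1 and 2237 CPM in Irf1_FF plates. Macrophage markers summed to a median of 597 and 754 CPM. The ranges overlapped between the genotypes, and the part of these cells in the GTPase values was not tested. The targeted transcript itself was still counted, at 309, 156, 344, 92.5 and 212 CPM in the 5 Irf1_dXCR1 plates, against 203, 448, 372 and 348 CPM in the 4 Irf1_FF plates (log2 fold change -0.59 ± 0.38, edgeR adjusted p = 0.685). The groups overlapped. Counts come from the 5′ end of transcripts, and the deleted part of the gene is not given in the sources used here, so Irf1 counts may not check the deletion.

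Between the Irf1 genotypes Gbp2 did not pass in Ccr7+ cells. It had 156, 433, 221, 99.8 and 104 CPM in Irf1_dXCR1 plates, against 569, 532, 309 and 432 CPM in Irf1_FF plates. All but 1 of the Irf1_dXCR1 plates lay below all Irf1_FF plates. The means were 203 ± 138 (n = 5) and 461 ± 117 CPM (n = 4), with a log2 fold change of -1.25 ± 0.66, and edgeR did not call it (adjusted p = 0.386). With upper-quartile factors the fold change turned to 1.17, and the median of all genes shifted by 0.70. In CPM no GTPase separated the genotypes in Ccr7+ cells, where 0.365% of genes were higher and 0.585% lower without overlap. No gene of 11786 was called by edgeR in Ccr7+ cells (0%), while 1409 had an unadjusted p under 0.05 and DESeq2 called 125, none of them one of the 9.

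The share of Ccr7+ cells with Gbp2 gave the one unadjusted p under 0.05 among 36 tests of thinned shares. In cells thinned to 20000 UMIs it was 20.0%, 12.5%, 28.6%, 15.8% and 22.2% in Irf1_dXCR1 plates, against 66.7%, 30.8%, 23.1% and 50.0% in Irf1_FF plates. The plates overlapped through Irf1_FF replicate 3. The mean shares were 19.8 ± 6.17% (n = 5) and 42.6 ± 19.6% (n = 4), with an exact permutation p of 0.0317 (two-sided, smallest possible 0.0159), and without thinning they were 22.3 ± 4.86% and 40.8 ± 20.1% (exact permutation p = 0.0952). Leaving out any 1 plate other than Irf1_dXCR1 replicate 3 or Irf1_FF replicate 3 put the exact permutation p at 0.0571 to 0.0714. These shares rest on 6 to 19 Ccr7+ cells per plate.

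In the other classes Gbp2 did not pass. Over all cells it averaged 186 ± 121 CPM in Irf1_dXCR1 and 312 ± 89.7 CPM in Irf1_FF plates (log2 fold change -0.71 ± 0.49, edgeR adjusted p = 0.758). In Isg15+ cells it averaged 274 ± 260 and 429 ± 97.2 CPM (-0.66 ± 0.63), and in Xcr1+ Ccr7- cells 64.4 ± 57.0 (n = 3) and 77.4 ± 73.4 CPM (n = 4), with a log2 fold change of -0.21 ± 1.32. Its thinned shares were 12.3 ± 5.67% (n = 3) and 26.2 ± 12.9% (n = 4) in Xcr1+ Ccr7- cells (exact permutation p = 0.171), and 32.2 ± 13.6% and 47.3 ± 15.4% in Isg15+ cells (exact permutation p = 0.190). Over all cells they were 18.9 ± 9.60% and 32.5 ± 7.94% (exact permutation p = 0.0635), and without thinning 19.4 ± 8.94% and 33.1 ± 7.31% (exact permutation p = 0.0476). The difference in fold change between Ccr7+ and Xcr1+ Ccr7- cells was -1.66 ± 1.22 for Gbp2, beside a median of 0.51 over all genes, and edgeR called 0% of 9255 genes for it (115 with an unadjusted p under 0.05, DESeq2 225). In simulated data this fit recovered 24% of genes changed by 3 on the log2 scale and 0% of those changed by 1, so a difference between the classes could be missed.

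**Figure D4:**
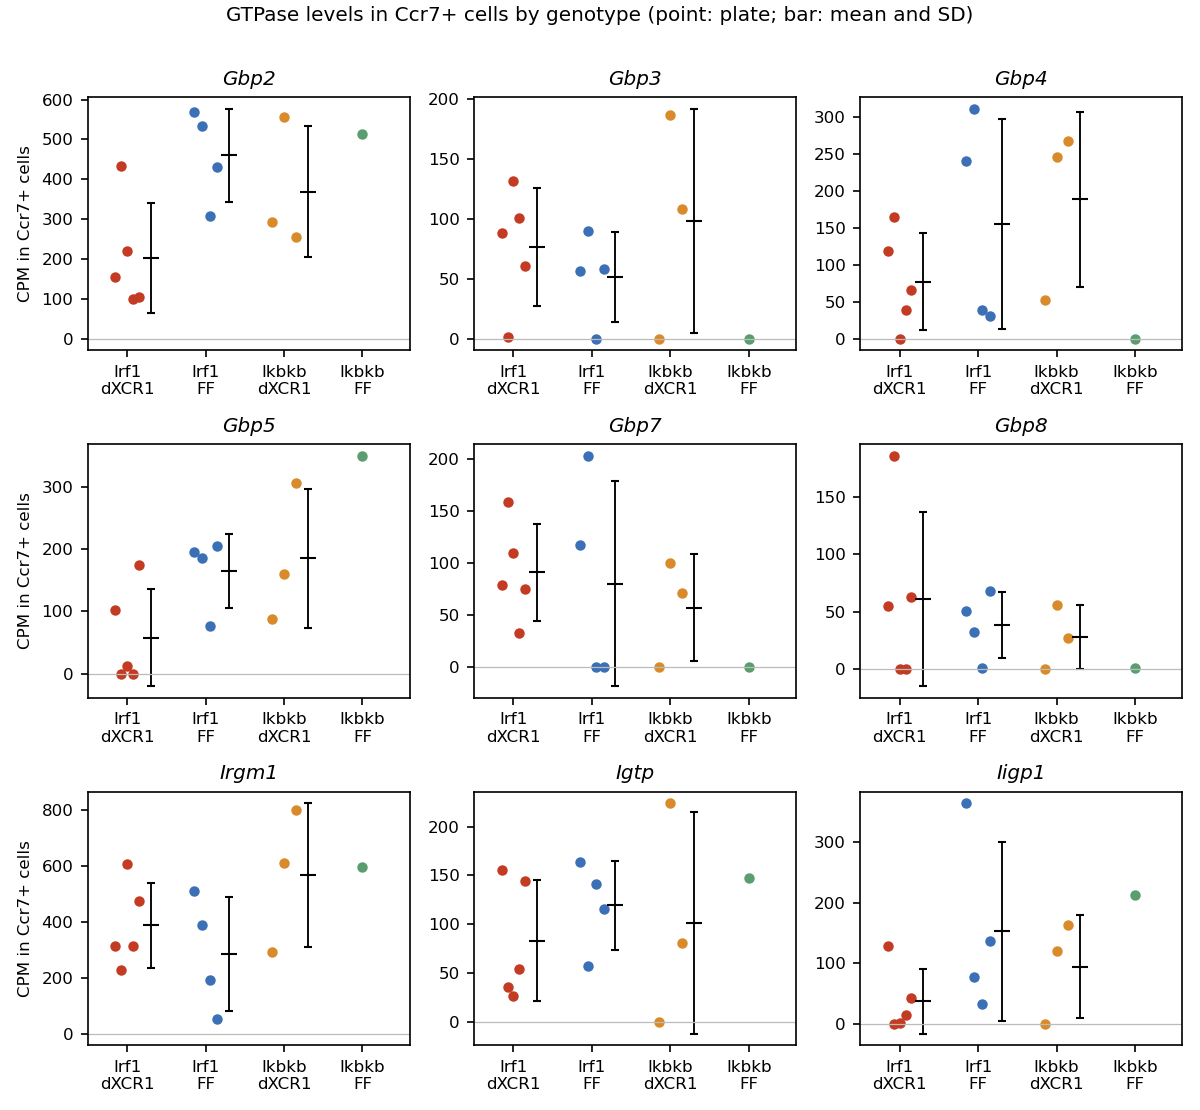
CPM of each GTPase in Ccr7+ cells (y axis) by genotype, with 1 point per plate and the mean and SD beside groups of more than 1 plate. For Gbp2, 4 of 5 Irf1_dXCR1 plates lie below all 4 Irf1_FF plates (309 to 569 CPM).

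The other 8 GTPases lay on both sides of 0 in Ccr7+ cells. Iigp1 averaged 37.5 ± 53.6 CPM in Irf1_dXCR1 and 153 ± 147 CPM in Irf1_FF plates (log2 fold change -1.92 ± 1.60), Gbp5 averaged 57.9 ± 78.2 and 166 ± 59.5 CPM (-1.47 ± 1.33), and Gbp4 averaged 77.5 ± 65.2 and 155 ± 142 CPM (-0.98 ± 1.34). Igtp had 83.2 ± 61.8 and 119 ± 45.5 CPM, Irgm1 had 386 ± 152 and 285 ± 203 CPM, and Gbp3 had 76.4 ± 49.1 and 51.3 ± 37.5 CPM. Gbp7 had 90.8 ± 46.6 and 80.2 ± 98.95 CPM, and Gbp8 had 60.7 ± 75.9 and 38.0 ± 28.7 CPM. Their edgeR adjusted p-values were 0.764 to 1, and 4 of the 9 fold changes lay above 0, with a median of -0.46, against 0 over all genes.

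Irgm1 in Xcr1+ Ccr7- cells leaned the other way from Gbp2. Its thinned share was 71.4%, 70.6% and 75.0% in the 3 Irf1_dXCR1 plates with enough such cells, against 37.5%, 42.9%, 42.9% and 63.2% in the 4 Irf1_FF plates. The means were 72.3 ± 2.34% and 46.6 ± 11.3%, with an exact permutation p of 0.0571, the smallest that 3 against 4 plates allow. Irf1_dXCR1 replicates 2 and 3, with 4 such cells each, were left out. Their thinned shares of Irgm1 were 50% and 25%, inside and below the range of the Irf1_FF plates. The separation of the genotypes in this share therefore rests on the number of cells required per plate. How often shares of other genes separate in this way was not computed; in CPM 2.27% of genes were higher without overlap in this class. Its CPM, at 568 ± 52.7 and 438 ± 172, overlapped between the genotypes (log2 fold change 0.45 ± 0.97, edgeR adjusted p = 1).

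Over all cells and in the other classes no GTPase passed between the Irf1 genotypes. Over all cells, edgeR called 0% of 16203 genes, with 1272 at an unadjusted p under 0.05 and 100 called by DESeq2. In Xcr1+ Ccr7- cells it called 0% of 12048 (500 unadjusted, DESeq2 107), and in Isg15+ cells 0% of 14603 (1168 unadjusted, DESeq2 106). The CPM of every GTPase overlapped between the genotypes in these classes too. Without overlap, 0.599% of genes were higher and 0.623% lower over all cells, 2.27% and 1.41% in Xcr1+ Ccr7- cells, and 0.555% and 0.329% in Isg15+ cells. The 9 fold changes over all cells ran from -0.71 for Gbp2 to 0.50 for Gbp8, with 3 above 0. In Isg15+ cells Irgm1 was at nearly one level, with 603 ± 155 CPM in Irf1_dXCR1 and 599 ± 104 CPM in Irf1_FF plates. Igtp averaged 206 ± 80.2 and 298 ± 107 CPM there, and Iigp1 averaged 265 ± 196 and 362 ± 132 CPM.

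None of the 97 genes on 7 related lists passed between the Irf1 genotypes over all cells. Among the most abundant of them, Tgtp2 had 429 ± 194 CPM in Irf1_dXCR1 and 351 ± 74.1 CPM in Irf1_FF plates, and Ifi47 was at 272 ± 83.1 and 263 ± 84.5 CPM. Irf7 had 1370 ± 455 and 757 ± 119 CPM, Usp18 had 614 ± 182 and 333.5 ± 66.4 CPM, and Ifitm3 had 2078 ± 493 and 1349 ± 153 CPM (edgeR adjusted p = 0.519 for each of the 3). Irf8 (857 ± 143 and 1119 ± 203 CPM), B2m (4053 ± 387 and 3987 ± 849 CPM) and Nfkbia (1080.0 ± 218 and 1378 ± 201 CPM) did not pass either. Psme2, Xaf1, Gabarap, Sqstm1 and Nfkbib differed by -0.08 to 0.59 on the log2 scale. Of the 18 type I interferon-stimulated genes, 16 had fold changes above 0 over all cells, with a median of 0.51, against 47.3% of all genes. In Ccr7+ cells 16 lay above 0, with a median of 0.89 (49.6% of all genes). In Xcr1+ Ccr7- cells 17 did, with a median of 1.03 (47.9%), and in Isg15+ cells 11, with a median of 0.10 (50.8%). Isg15+ cells were 47 of 59, 12 of 37, 10 of 29, 28 of 49 and 34 of 49 cells in the Irf1_dXCR1 plates. In the Irf1_FF plates they were 16 of 43, 17 of 40, 10 of 31 and 25 of 51. These shares overlapped between the genotypes, and the part of this mixture in the GTPase values over all cells was not tested.

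The Ikbkb comparison rests on 1 control plate, so its spread comes from the other groups. The targeted transcript, Ikbkb, had 133, 245, 273 and 291 CPM in the Ikbkb_dXCR1 plates, against 300.1 CPM in the Ikbkb_FF plate (log2 fold change -0.28 ± 0.58, edgeR adjusted p = 1), with the same limit as for Irf1. Gbp2 had 133, 86.2, 246 and 208 CPM in the Ikbkb_dXCR1 plates, against 177 CPM in the Ikbkb_FF plate, and Irgm1 had 143, 227, 519.5 and 736 CPM, against 399.7 CPM. For both genes the Ikbkb_FF plate lay inside the range of the Ikbkb_dXCR1 plates. Gbp7 was at 0 in the Ikbkb_FF plate and at 5.34, 28.6, 116 and 80.7 CPM in the Ikbkb_dXCR1 plates. By edgeR 0% of 16203 genes were called (707 with an unadjusted p under 0.05), and DESeq2 called 1180, Gbp7 among them.

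The age of the mice and the number of Isg15+ cells moved with these values. The 9 GTPases summed to 502 and 529.6 CPM in the Ikbkb_dXCR1 plates of 8 weeks and to 1569 and 1735 CPM in those of 6 weeks, against 864 CPM in the Ikbkb_FF plate of 8 weeks. Iigp1 was at 0 in both Ikbkb_dXCR1 plates of 8 weeks and at 149 and 173 CPM in those of 6 weeks, against 86.3 CPM in Ikbkb_FF. Isg15+ cells were 4 of 18 and 10 of 26 in the Ikbkb_dXCR1 plates of 8 weeks and 19 of 38 and 36 of 51 in those of 6 weeks, against 12 of 34 in the Ikbkb_FF plate. The part of age and of Isg15+ cells was not tested. In Ccr7+ cells Gbp2 averaged 368 ± 164 CPM in 3 Ikbkb_dXCR1 plates and was 515 CPM in the Ikbkb_FF plate, values given side by side with no test. They rest on few cells, with Gbp2 in 1 of 5, 5 of 15 and 6 of 22 Ccr7+ cells of those Ikbkb_dXCR1 plates. In the Ikbkb_FF plate it was in 2 of 8.

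Detection of several GTPases in 1 cell is given as pooled shares, with no background over other pairs of genes. Isg15+ cells had more genes detected (median 1832) than Isg15- cells (1266). Of the Isg15+ cells 63.6% had at least 2 of the 9 and 31.1% at least 4, against 26.2% and 6.91% of Isg15- cells. At 20000 UMIs per cell the shares with at least 2 were 60.3% and 22.9%. At least 2 were in 45.3% of Ccr7+ and 40.9% of Xcr1+ Ccr7- cells, and at least 4 in 17.1% and 10.7%. Of the 136 cells with Gbp2, 70.6% also had Irgm1, against 46.5% of all cells, and 41.2% also had Gbp7, against 14.8% of all cells.

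The close pairs on chromosome 5 need care. Gbp4, Gbp8 and Gbp9 share 60 to 61 exonic bases at their 5′ ends, where these libraries read, and 106 of the 115 cells with Gbp4 also had Gbp9 (92.2%, against 35.9% of all cells). How reads in shared bases were assigned is not given in the sources used here, so values of Gbp4 and Gbp8 are uncertain. Gbp7 shares 637 exonic bases with Gm43802, and Igtp shares 162 with its neighbour Irgm2.

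**Figure D5:**
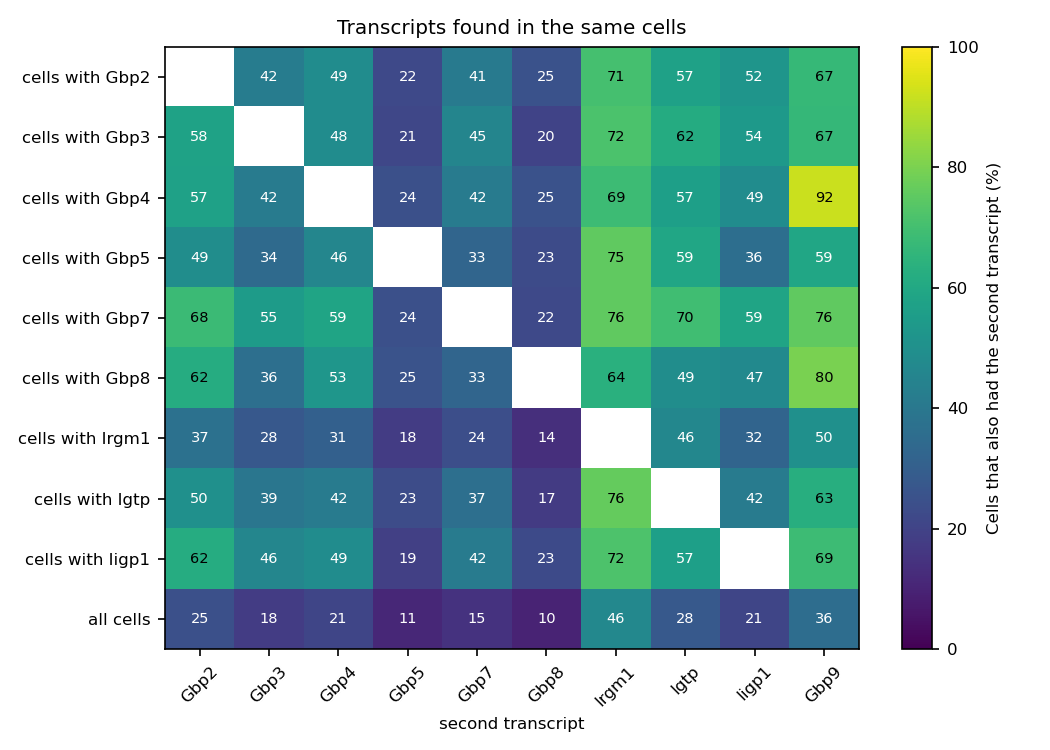
Share of cells with the transcript of the row that also had the transcript of the column (colour and number, percent), over all 555 cells; the bottom row gives the share of all cells. The highest number is for Gbp9 in cells with Gbp4 (92.2%), which share exonic bases.

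Over the 14 plates, the genes most like the summed CPM of the 9 GTPases were Ly6i (Spearman rho 0.89), Ctsb, which encodes cathepsin B (0.87), Rab3il1 (0.87), Zfx (0.87) and Cxcl10, an interferon-induced chemokine (0.86), of 10974 genes compared on the log2 CPM scale. The plates differ in depth, cell mixture, genotype and experiment, so these values describe the plates.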

How the data were processed

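Transcripts of cells sorted 1 to a well were tagged with UMIs at their 5′ end, per the labels' protocols. The submitters' processing notes name GRCm38 as the build, with STAR 2.5.3a and HTSeq 0.9.1 among the tools. The authors deposited whole UMI counts (21205 genes, 555 cells), along with a table of cells that holds plate, genotype, the fraction of mitochondrial UMIs and, for 458 cells, the inverse hyperbolic sine of XCR1 staining. With UMIs of 5 bases a count cannot pass 1024, so high levels are understated. All cells were kept, and doublets were not searched for in these single-cell wells.

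The plate is the replicate. Sums over the cells of a class (at least 5 cells in a plate) were filtered with filterByExpr, scaled by TMM and tested across all genes by edgeR 4.0.16 (quasi-likelihood, R 4.3.3), at an adjusted p under 0.05 (Benjamini-Hochberg). Genotypes were compared in a fit of 4 groups, and classes with the plate as a block, since both come from 1 tumour. Printed CPM are not TMM scaled, while fold changes come from the scaled fits. Replicates were numbered in accession order, which pairs nothing across genotypes. Shares were compared with exact permutation tests over plates after thinning each cell to 20000 UMIs. DESeq2 1.42.0, upper-quartile factors and other thresholds were alternatives. The exact sign-flip tests and the Isg15 comparison among Xcr1+ or Ccr7+ cells were chosen after seeing the data.

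The members and lists were chosen with earlier results of these data known. All 9 GTPases, Irf1 and Ikbkb are named in every comparison they bear on. Of each list, up to 4 genes past the threshold are named or, if fewer than 2 passed, the 2 with the highest mean CPM, except 1 gene that is not reported here. The motif searches and the pairs in the co-detection account were chosen after values were seen. In simulated data the fits recovered 95% of genes changed by 3 on the log2 scale between Irf1 genotypes over all cells but 2% of those changed by 1. For Ccr7+ against Xcr1+ Ccr7- cells they recovered 100% and 24%, for Isg15+ against Isg15- cells 100% and 36%, and for the Ikbkb genotypes 16% and 1%.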

Additional observations from a re-analysis of the deposited data

Results flagged for a closer look

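Of 81 groups of 4 or 5 plates, 9 held a plate far from the others. The rule flags about 1 in 20 groups of normally distributed values, a rate that need not hold for values with many zeros. Where all other plates of a group were at 0, any plate above 0 was flagged. Over all cells, Gbp3 stood at 287 CPM in Irf1_dXCR1 replicate 3, against 137 to 149.7 CPM in the other plates of the group. In Ccr7+ cells, Gbp5 stood at 77.3 CPM in Irf1_FF replicate 3, against 185 to 205 CPM. The others are in Xcr1+ Ccr7- cells, where plates held as few as 5 cells. Irf1_FF replicate 3 had 186 CPM of Gbp2, against 27.4 to 48.8 CPM, and 172 CPM of Gbp8, against 0 to 7.90 CPM. Irf1_FF replicate 4 had 59.5 CPM of Gbp5 and Irf1_FF replicate 1 had 35.1 CPM of Gbp7, with the others at 0 to 4.55 CPM. Ikbkb_dXCR1 replicate 4 had 78.7 CPM of Gbp3, 25.0 CPM of Gbp8 and 149.7 CPM of Iigp1, each at 0 in the other plates of that group.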

How the results depend on the processing

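Genotypes could not be compared in pairs, because replicate numbers follow the accession order and pair no plates across genotypes. The class comparisons were paired by plate. Without the plate block they called 203 genes for Ccr7+ and 12 for Isg15+ cells, against 217 and 19 with it. DESeq2 called more genes in every comparison: 100 (Irf1, all cells), 125 (Ccr7+), 107 (Xcr1+ Ccr7-), 106 (Isg15+), 1180 (Ikbkb), 1237 (Ccr7+ against Xcr1+ Ccr7-, with Gbp2, Gbp5 and Gbp8), 375 (Isg15+ against Isg15-, with Gbp5, Igtp, Iigp1 and Irgm1) and 225 (the Irf1 difference between classes). For Irf1 in Ccr7+ cells, upper-quartile factors called 71 genes and turned the fold changes of Gbp2 (1.17), Gbp4 (1.42), Igtp (0.41) and Irf1 (1.34), where the factors ran from 0.135 to 1.73. In Isg15+ cells these factors moved the median of all genes to -0.29. No filter called 7, at least 3 UMIs per class 2 (Gbp7 -0.19, Gbp8 -0.42, Irgm1 -0.030) and at least 10 cells 2 (Gbp7 -0.032, Igtp 0.22). No filter called 1 gene for the Irf1 difference between classes. For Ccr7+ against Xcr1+ Ccr7- cells, at least 3 UMIs called 419 genes (Gbp3 -0.67, Irgm1 -0.56) and at least 10 cells 74 (Gbp7 -0.33, Irgm1 -0.84, Iigp1 -0.21). There Irgm1 was also below 0 with DESeq2 (-0.0031) and upper-quartile factors (-0.0031), with no block (-0.066) and in CPM (-42.7). For Isg15+ against Isg15- cells, Xcr1+ or Ccr7+ cells alone called 7 genes (Gbp8 -1.32). The tests of shares under 0.05 numbered 3 at 50000 UMIs, where Gbp3 (-2.62), Irgm1 (-1.41) and Igtp (-6.28) turned in Ccr7+ cells, and Igtp did so without thinning (-4.00 percentage points).

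Leaving out 1 plate at a time moved the calls to 0 to 8 (Irf1, Ccr7+ cells), 0 to 1 (Xcr1+ Ccr7-), 7 to 21 (Isg15+ against Isg15-) and 0 to 2 (shares). For Isg15+ against Isg15- cells the count was 7 without Irf1_dXCR1 replicate 3, 8 without Irf1_dXCR1 replicate 5 or Ikbkb_dXCR1 replicate 4, and 10 to 12 without Irf1_dXCR1 replicate 1, Irf1_FF replicates 1 or 2, Ikbkb_dXCR1 replicate 3 or the Ikbkb_FF plate. For Irf1 in Ccr7+ cells it was 8 without Irf1_dXCR1 replicate 1, 4 without replicate 4, 3 without replicate 5, and 1 without Irf1_dXCR1 replicate 3 or Irf1_FF replicates 1 or 2. Fold changes ran from -0.26 to 1.31 (Gbp7) and -0.33 to 1.13 (Gbp8) for Irf1 in Ccr7+ cells, from -1.05 to 0.51 (Gbp2, Irf1 in Xcr1+ Ccr7- cells), from -0.29 to 0.17 (Gbp2, Ikbkb), from -0.30 to 0.30 (Irgm1, Ccr7+ against Xcr1+ Ccr7-) and from -0.078 to 0.68 (Gbp8, Isg15+ against Isg15-). Shares in Ccr7+ cells differed by -3.43 to 3.43 (Gbp3), -4.05 to 7.06 (Gbp7), -0.99 to 16.5 (Irgm1) and -0.40 to 7.29 (Igtp) points. For Gbp2 they differed by -29.3 to -14.8 points, with permutation p-values of 0.0286 to 0.0714. Leaving out the 1 Ikbkb_FF plate was not possible. The cause of these changes was not tested. A change of 1 on the log2 scale was mostly below what these fits recover, so a GTPase that did not pass may still differ.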
